A study of Mus musculus with 9 samples.

Results

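The cytochrome P450 genes of the mouse kidney are described here after ligation of the common bile duct, with and without feeding of norursodeoxycholic acid (norUDCA). The members were every gene with an array row of a single gene symbol that begins with Cyp and a digit, except Cyp4a14, Cyp7b1, Cyp27a1, Cyp39a1, Cyp51, Cyp27b1 and Cyp24a1, which are not described here. This gave 91 genes of the 22180 measured, each read from its brightest row. RefSeq lists 86 of them as protein coding and 5 as transcribed pseudogenes. In the study, total RNA of whole kidney was hybridised to 9 arrays, 3 from each of 3 groups taken 3 weeks after the operation. The sham group had a sham operation, the CBDL group had common bile duct ligation, in which bile is held back and bile acids reach the blood and the kidney, and the norUDCA group had the same ligation after 5 days of feeding with norUDCA, a side-chain-shortened bile acid. Strain, sex and age were not among the labels, which also give no dosing after the ligation and do not say if the 3 samples of a group came from separate animals, so that every p-value below measures only the spread between these samples. A norUDCA-fed sham group was not analysed here, so an effect of the bile acid itself cannot be told apart from its effect in ligated mice.

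Cytochrome P450 enzymes are heme proteins that insert an oxygen atom into fats, steroids, bile acids, vitamins and foreign compounds, with electrons passed on by a reductase and cytochrome b5 in the endoplasmic reticulum or by ferredoxin in mitochondria. Families CYP1 to CYP3 handle mainly foreign compounds and fatty acids, CYP4 enzymes hydroxylate the end of fatty acid chains, and higher-numbered families make or degrade steroids, sterols and retinoic acid. In the kidney most of them sit in the proximal tubule, where CYP2J and CYP2C epoxygenases and CYP4A hydroxylases turn arachidonic acid into epoxides and 20-HETE, lipids that act on vessel tone and salt transport. Several mouse kidney members, among them Cyp4a12a, Cyp2j13, Cyp2d9 and Cyp2a4, are known to be higher in males and raised by androgen.

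The values are log2 signals; signals of different genes depend on their probes and are not compared as amounts of transcript. Array medians lay between 5.697 and 5.79. The dimmest 33.3% of all genes had a mean signal under 5.20, called dim here, and 54 of the 91 members were dim, 51 of them with every group mean under that level, so that small changes in them may not be seen. Of the 9 arrays, sham_159 and CBDL_165 had the lowest estimated weights, 0.34 and 0.45, against 0.78 to 1.98 for the others. The Y-linked genes Kdm5d, Eif2s3y and Uty read 6.46, 7.64 and 7.66 on norUDCA_172 and at least 7.89, 8.49 and 9.15 on the other arrays. The X-linked Xist was dim on every array, from 3.66 on norUDCA_172 to 4.39 on sham_160. The cause of the low Y-linked values was not tested, and counts without norUDCA_172 are given with each comparison that uses it. Of 20 measured proximal tubule markers, all 20 fell in CBDL against sham, beside 11.5% of all genes. Their summed signal was 16.57 to 16.66 in sham, 14.61 to 15.68 in CBDL and 16.13 to 16.26 in norUDCA kidneys on the log2 scale. In whole tissue, fewer proximal tubule cells and less RNA per cell cannot be told apart. The part of this change in the P450 results was not tested.

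In CBDL against sham, 18 members fell, 6 rose and 67 did not pass the test, which was limma's moderated test with Benjamini-Hochberg adjustment over all 22180 genes and an adjusted p threshold of 0.05. The members that fell made up 19.8%, beside a background of 11.5% of all genes, and those that rose made up 6.59%, beside 10.3%; in either direction 26.4% were called, beside 21.8%. Of the 18, 13 were at least 2-fold lower, and 1 of the 6, Cyp1b1, was at least 2-fold higher. The median change of the members was -0.17 (log2), against -0.06 over all genes. On 26 members every CBDL array lay under every sham array and on 9 every one lay above, beside 20.0% and 15.6% of all genes, or 35.6% together. All 8 members with a sham mean signal above 10 fell: Cyp2j5, Cyp2e1, Cyp4b1, Cyp2j13, Cyp4a31, Cyp2a4, Cyp2j11 and Cyp2d26. These 8 were picked by their level in sham, the reference of this comparison, and such a choice favours a fall. The share of all genes so picked that fell was not computed. Among the 37 members that were not dim, 14 fell and 4 rose, 48.6% called in all, beside 30.6% of all genes that were not dim. Leaving out sham_160 lowered the count that rose from 6 to 3, and leaving out sham_159 and CBDL_165 together also gave 3, with 14 that fell.

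**Figure D1:**
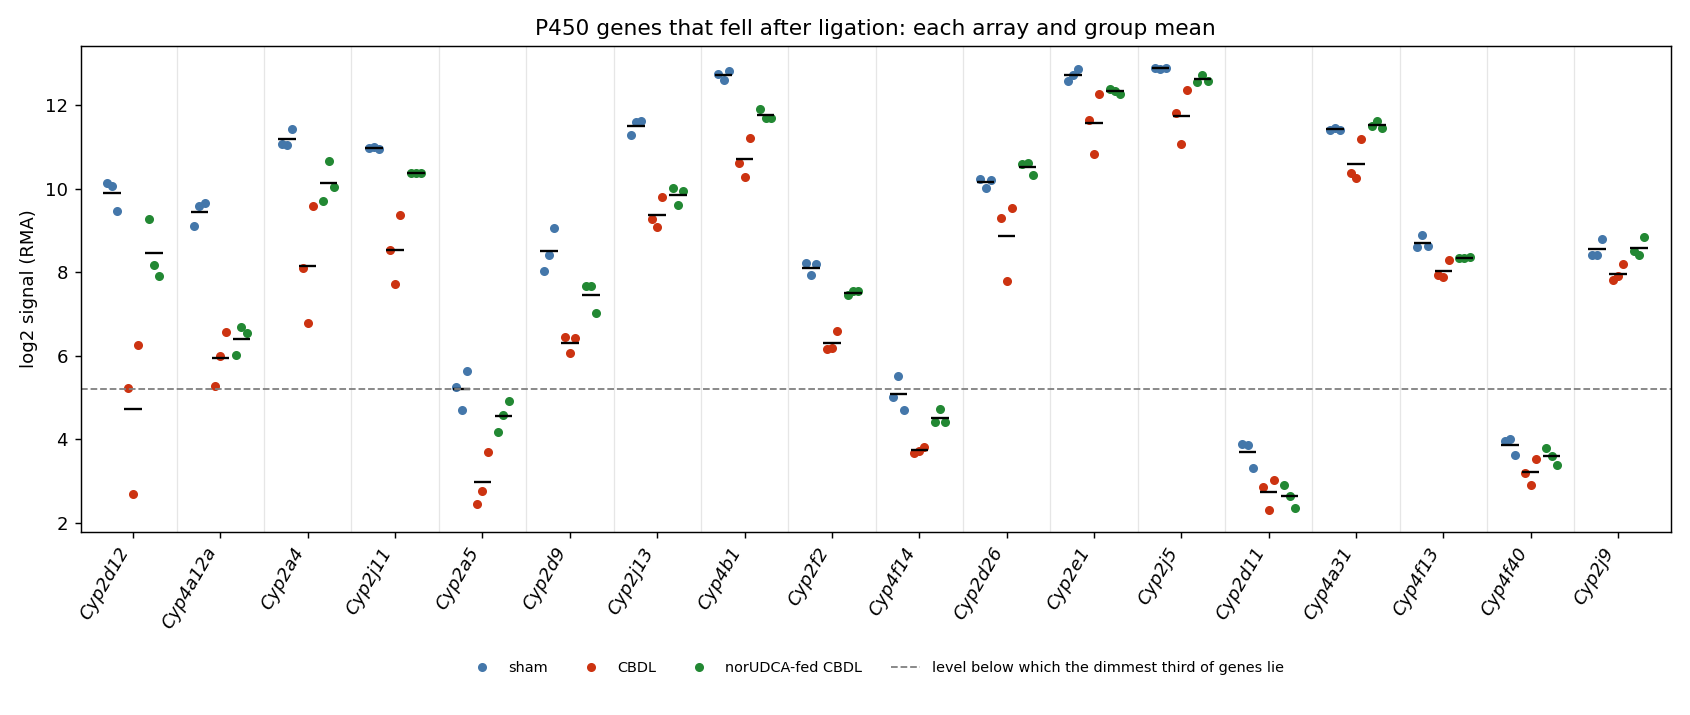
Log2 signal (RMA) on each of the 9 arrays for the P450 genes that fell in CBDL against sham; dots are arrays, coloured by group, black bars are group means of 3 arrays and the dashed line is the level below which the dimmest 33.3% of genes lie. Cyp2d12 has the widest CBDL spread, from 2.68 to 6.27, and Cyp4a12a, Cyp2j13 and the dim Cyp2d11 stay low in the norUDCA group.

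With norUDCA before ligation, 13 members rose against CBDL, 1 fell and 77 did not pass the test. The shares were 14.3% higher and 1.1% lower, beside backgrounds of 3.61% and 3.20% of all genes, and 15.4% in either direction, beside 6.80%. Of the 13 genes, 9 were at least 2-fold higher, and the median change of all members was 0.09, against 0.00 over all genes. On 20 members the norUDCA arrays lay wholly above the CBDL arrays and on 4 wholly below, beside 11.6% and 12.6% of all genes, or 24.2% together. The count that rose depended on single arrays. It was 1 without CBDL_164, 5 without CBDL_165, and 4, 2 and 3 without norUDCA_172, norUDCA_175 and norUDCA_179. Leaving out CBDL_170 gave 16. Cyp2f2 was the call that passed in all 9 fits with 1 array left out. No member was called lower without CBDL_164, CBDL_165, CBDL_170, norUDCA_172, norUDCA_175 or norUDCA_179, or without sham_158, where limma's unadjusted p was under 0.05 with a lower value for 2 to 6 members. The share of all genes under that p in these fits is not given here.

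In norUDCA against sham, 5 members fell, 4 rose and 82 did not pass the test, shares of 5.49% and 4.4% beside backgrounds of 1.37% and 1.82%, and 9.89% in either direction, beside 3.18%. The 5 that fell were Cyp4a12a, Cyp2j13, Cyp2d11, Cyp4b1 and Cyp2f2, and the 4 that rose were Cyp26b1, Cyp1b1, Cyp17a1 and Cyp2d22. The median change was -0.05 for the members and also -0.05 for all genes. On 16 members the norUDCA arrays lay wholly under the sham arrays and on 10 wholly above, beside 13.5% and 8.96% of all genes, or 22.5% together. Cyp4a12a, Cyp2j13 and Cyp1b1 passed in all 9 fits with 1 array left out. Without norUDCA_172, 2 members fell and 3 rose; without sham_159, CBDL_164 or norUDCA_175, 2 fell; without sham_158 or sham_160, 3 fell; and without norUDCA_179, 2 fell and 1 rose. Quantile normalization gave 3 that fell and 4 that rose, and setting each array's median to 0 gave 4 and 4. The comparisons of norUDCA with CBDL and with sham share arrays with the first comparison, so their values below stand side by side and are not independent.

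**Figure D2:**
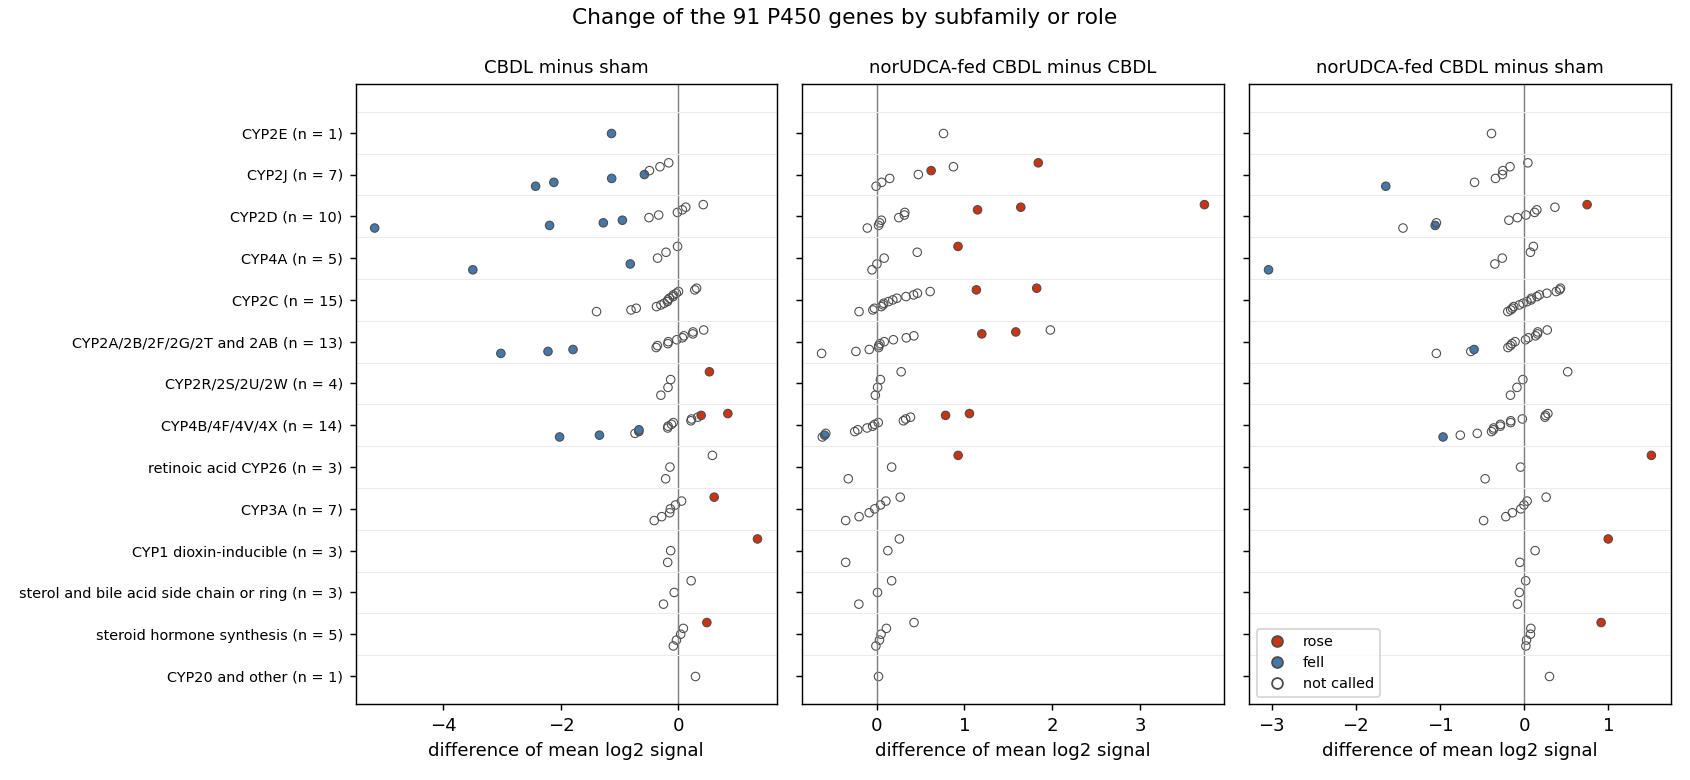
Difference of mean log2 signal for each of the 91 P450 genes, by subfamily or role (vertical axis), in the 3 comparisons of groups; red dots rose, blue dots fell and open dots were not called. The CYP2J, CYP2D and CYP4 rows hold most blue dots in CBDL against sham, and the CYP2C row holds none.

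The CYP2J genes encode arachidonic acid epoxygenases. Of 7 members, 4 fell in CBDL against sham, 2 rose in norUDCA against CBDL and 1 fell in norUDCA against sham. These are 57.1%, 28.6% and 14.3%, beside 11.5%, 3.61% and 1.37% of all genes. The median changes were -0.58, 0.48 and -0.26. Cyp2j5, the renal proximal tubule epoxygenase, read 12.89, 12.88 and 12.90 on sham_158, sham_159 and sham_160, then 11.81, 11.08 and 12.37 on CBDL_164, CBDL_165 and CBDL_170, and 12.56, 12.73 and 12.59 on norUDCA_172, norUDCA_175 and norUDCA_179; later values keep this order. The sham arrays were the highest, the norUDCA arrays lay between, and no groups overlapped. It fell in CBDL by 1.13 (log2, SE 0.25, limma adjusted p = 0.00973). Its difference of 0.87 in norUDCA against CBDL did not pass (adjusted p = 0.0733), but did without CBDL_170 (adjusted p = 0.00634).

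Cyp2j11 read 10.97, 11.003 and 10.96 in sham, 8.55, 7.72 and 9.37 in CBDL and 10.39, 10.39 and 10.39 in norUDCA kidneys. The 3 groups did not overlap, and the spread was widest in CBDL. It fell by 2.43 in CBDL (SE 0.32, limma adjusted p = 0.000519) and rose by 1.84 in norUDCA against CBDL (SE 0.32, adjusted p = 0.0123), a call lost without CBDL_164 or norUDCA_175 (highest adjusted p = 0.057). Against sham the norUDCA value was -0.59 (adjusted p = 0.392). For Cyp2j13, one of the androgen-raised members, the arrays gave 11.28, 11.60 and 11.64 in sham, 9.28, 9.08 and 9.80 in CBDL and 10.02, 9.62 and 9.95 in norUDCA kidneys. CBDL and norUDCA overlapped, and both lay under sham. It fell in CBDL by 2.12 (SE 0.19, limma adjusted p = 8.13e-05), was not called in norUDCA against CBDL at 0.47 (95% interval 0.05 to 0.90, adjusted p = 0.203; 0.0341 without CBDL_170, where it was called higher), and fell in norUDCA against sham by 1.64 (SE 0.19, adjusted p = 0.00289). Without norUDCA_172 the last value was -1.72 (adjusted p = 0.0151). Cyp2j9 read 8.43, 8.41 and 8.81, then 7.81, 7.91 and 8.19, then 8.52, 8.41 and 8.85. The CBDL arrays lay under both other groups, which overlapped each other. It changed by -0.58 in CBDL (adjusted p = 0.0283) and 0.62 in norUDCA against CBDL (adjusted p = 0.049). The first call was lost without sham_160, CBDL_164 or CBDL_165 (highest adjusted p = 0.0999), and the second without sham_158, sham_159, CBDL_164, CBDL_165 or any 1 norUDCA array (highest 0.165). Cyp2j6, Cyp2j8 and the dim Cyp2j12 were not called, with CBDL differences of -0.16, -0.49 and -0.31.

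The CYP4 genes encode fatty acid hydroxylases. Cyp4a12a, the androgen-raised enzyme that makes 20-HETE in male mouse kidney, read 9.11, 9.58 and 9.67 in sham, 5.27, 6.01 and 6.58 in CBDL and 6.01, 6.69 and 6.55 in norUDCA kidneys. CBDL and norUDCA overlapped, and both lay over 2 log2 units under sham. The gene fell in CBDL by 3.50 (SE 0.31, limma adjusted p = 7.07e-05), 11.3-fold lower, and in norUDCA against sham by 3.04 (SE 0.31, adjusted p = 0.00144), 8.21-fold lower. Between norUDCA and CBDL the difference was 0.46 (95% interval -0.23 to 1.15, adjusted p = 0.502). Without norUDCA_172 the norUDCA value against sham was -2.83 (adjusted p = 0.0101). The closely related Cyp4a12b read 8.21, 8.89 and 8.11, then 7.64, 8.27 and 8.67, then 8.16, 8.07 and 8.19. Its 3 groups overlapped, with a CBDL difference of -0.21 (95% interval -0.79 to 0.38, adjusted p = 0.626). Whether the probes of either gene also read the other was not tested.

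Cyp4a31 read 11.41, 11.46 and 11.41 in sham, 10.37, 10.26 and 11.19 in CBDL and 11.51, 11.64 and 11.46 in norUDCA kidneys. The CBDL arrays were lowest, and the norUDCA arrays lay at or just above the highest sham array. It fell by 0.82 in CBDL (SE 0.21, limma adjusted p = 0.0186) and rose by 0.93 in norUDCA against CBDL (SE 0.21, adjusted p = 0.0289). The first call was lost without sham_159, CBDL_164 or CBDL_165 (highest adjusted p = 0.0733), and the second without CBDL_164, CBDL_165 or any 1 norUDCA array (highest 0.113). The dim Cyp4a29 and Cyp4a30b were not called, with CBDL differences of -0.35 and -0.01. Over the 5 measured CYP4A genes the median changes were -0.35 in CBDL against sham, 0.09 in norUDCA against CBDL and -0.26 in norUDCA against sham. Cyp4a10 and Cyp4a32 share array rows with a relative and were not analysed here.

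Among the 14 genes of the CYP4B, 4F, 4V and 4X subfamilies, 4 fell (28.6%) and 2 rose (14.3%) in CBDL. Of all genes 11.5% fell and 10.3% rose, so the share that rose was near that of all genes. Cyp4b1, a kidney and lung hydroxylase that activates 4-ipomeanol, read 12.75, 12.62 and 12.82, then 10.63, 10.29 and 11.22, then 11.90, 11.70 and 11.70. The 3 groups were fully separate, with norUDCA between the others. It fell 4.06-fold in CBDL (log2 -2.02, SE 0.20, limma adjusted p = 0.000121) and rose 2.08-fold in norUDCA against CBDL (1.06, SE 0.20, adjusted p = 0.0162). That rise was not called without CBDL_164 or any 1 norUDCA array (highest adjusted p = 0.0664). It was lower in norUDCA than in sham (-0.96, SE 0.20, adjusted p = 0.0335), a call lost without any 1 sham or norUDCA array or CBDL_164 (highest adjusted p = 0.137). Cyp4f13, of the subfamily that hydroxylates leukotrienes and long-chain fatty acids, fell by 0.67 in CBDL (adjusted p = 0.00466) and was not called in norUDCA against CBDL (0.30, adjusted p = 0.233). The dim Cyp4f14, the leukotriene B4 hydroxylase of mouse, read 5.01, 5.52 and 4.71, then 3.67, 3.73 and 3.82, then 4.42, 4.72 and 4.42. CBDL was lowest and separate from both other groups. The gene fell by 1.34 in CBDL (adjusted p = 0.000704) and rose by 0.78 in norUDCA against CBDL (adjusted p = 0.0348), the latter lost without sham_158, CBDL_164, CBDL_165 or any 1 norUDCA array (highest 0.137). The dim Cyp4f40 also fell in CBDL, by 0.67, a call lost without sham_158, sham_159, CBDL_164 or CBDL_165 (highest adjusted p = 0.0749).

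In the other direction, Cyp4v3, the ortholog of the human fatty acid hydroxylase gene mutated in Bietti crystalline dystrophy, read 7.22, 7.64 and 7.18 in sham, 8.03, 8.32 and 8.23 in CBDL and 7.67, 7.45 and 7.67 in norUDCA kidneys. CBDL was highest and separate, and sham and norUDCA overlapped. It rose by 0.84 in CBDL (SE 0.14, limma adjusted p = 0.00229) and fell by 0.59 in norUDCA against CBDL (SE 0.14, adjusted p = 0.0396), the single member that fell in that comparison. The second call was lost without sham_158 or any 1 CBDL or norUDCA array (highest adjusted p = 0.149). Cyp4f16 read 6.73, 6.70 and 6.64 in sham and 7.12, 7.16 and 6.96 in CBDL kidneys and rose by 0.39 (adjusted p = 0.0123), with no overlap. The remaining 8 members of these subfamilies were called in no comparison, among them Cyp4f17, at 7.64 in sham and 7.85 in CBDL.

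**Figure D3:**
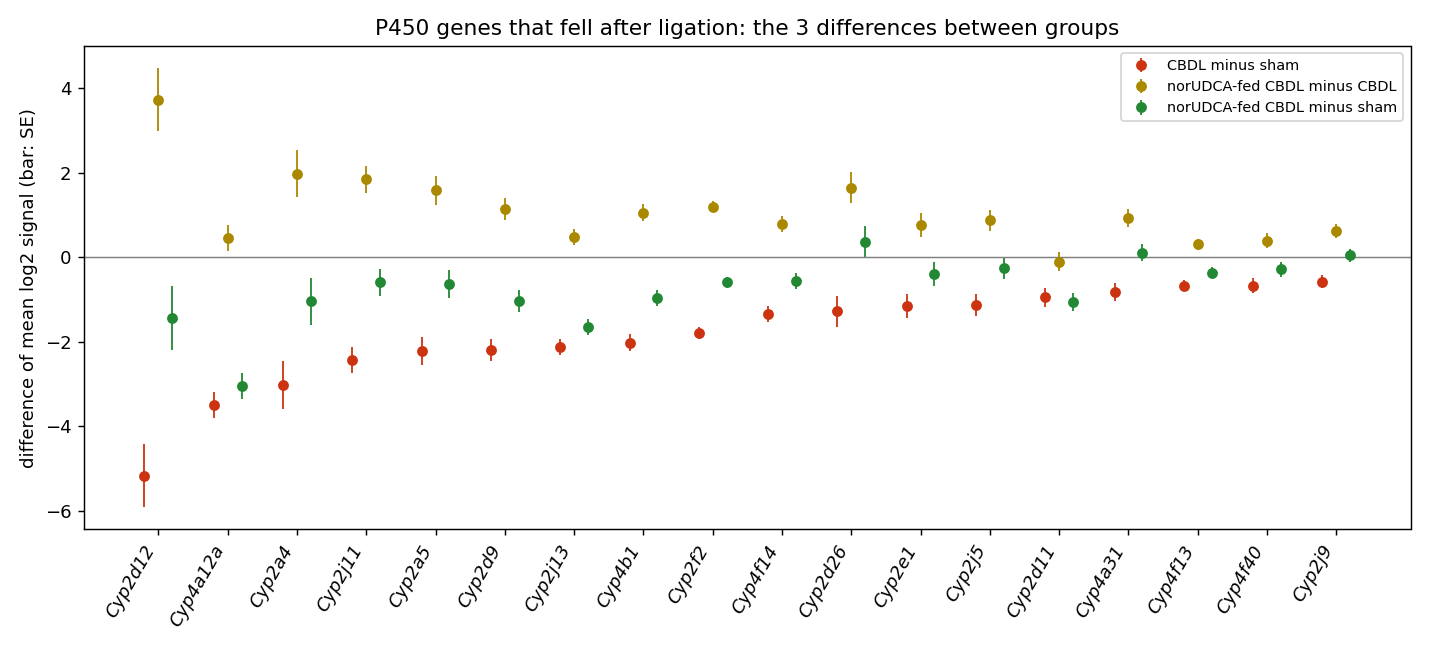
Difference of mean log2 signal (bar: SE) in the 3 comparisons for each P450 gene that fell in CBDL against sham. For Cyp4a12a, Cyp2j13 and the dim Cyp2d11 the difference of norUDCA from sham is near that of CBDL from sham, whereas for Cyp4a31, Cyp2j9 and Cyp2d26 it is near 0 or above it.

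The CYP2D genes encode enzymes that oxidise basic drugs and, in mouse, androgen-dependent steroid hydroxylases. Of 10 members, 4 fell in CBDL, 3 rose in norUDCA against CBDL, and 1 rose and 1 fell in norUDCA against sham. In that order these are 40%, 30%, 10% and 10%, beside 11.5%, 3.61%, 1.82% and 1.37% of all genes. Cyp2d12 read 10.14, 10.08 and 9.47 in sham, 5.23, 2.68 and 6.27 in CBDL and 9.28, 8.18 and 7.92 in norUDCA kidneys. The 3 groups were separate, with CBDL spread over more than 3 log2 units. Its fall of 5.17 (SE 0.75, limma adjusted p = 0.000913) was exceeded by 1 gene of the 22180, and none had a larger increase than its 3.73 (SE 0.75, adjusted p = 0.0194) in norUDCA against CBDL. The CBDL mean of 4.73 ± 1.84 (SD, n = 3) was dim, so the size of both changes is uncertain. The increase was not called without CBDL_164 or any 1 of the norUDCA arrays (highest adjusted p = 0.0737). Against sham the norUDCA value was -1.44 (SE 0.75, adjusted p = 0.381).

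Cyp2d9, a male-predominant steroid hydroxylase, read 8.03, 8.41 and 9.07, then 6.45, 6.06 and 6.42, then 7.67, 7.67 and 7.03. The groups were separate, with norUDCA in the middle. It fell by 2.19 in CBDL (SE 0.26, limma adjusted p = 0.000341), rose by 1.15 in norUDCA against CBDL (SE 0.26, adjusted p = 0.0318), and differed by -1.04 between norUDCA and sham (adjusted p = 0.0695; called lower without sham_158 at 0.0455). The rise was not called without CBDL_164, CBDL_165, norUDCA_172 or norUDCA_175 (highest adjusted p = 0.126). Cyp2d26 read 10.23, 10.03 and 10.22, then 9.29, 7.80 and 9.55, then 10.60, 10.63 and 10.34. The norUDCA arrays lay above the sham arrays, and CBDL_165 was the lowest. It fell by 1.28 (SE 0.37, adjusted p = 0.032) and rose by 1.64 in norUDCA against CBDL (SE 0.37, adjusted p = 0.0284). The fall was not called without any 1 sham array (highest adjusted p = 0.0837), nor the rise without CBDL_164 or any 1 norUDCA array (highest 0.108). Cyp2d22, often named as the mouse counterpart of human CYP2D6, read 8.47, 8.75 and 8.44, then 8.96, 8.96 and 9.01, then 9.59, 8.999 and 9.31. Sham was lowest and separate, and CBDL and norUDCA overlapped. It rose in norUDCA against sham by 0.75 (SE 0.15, adjusted p = 0.0285), a call lost without sham_158, sham_160, CBDL_164, norUDCA_172 or norUDCA_179 (highest 0.117), and its CBDL difference of 0.43 was not called (95% interval 0.09 to 0.76, adjusted p = 0.0715), although it was without sham_159, norUDCA_172 or norUDCA_175 (lowest adjusted p = 0.0379). The dim Cyp2d11 fell by 0.95 in CBDL (adjusted p = 0.0118) and by 1.06 in norUDCA against sham (adjusted p = 0.0342); the second call was lost without sham_158, sham_159, CBDL_164 or any 1 norUDCA array (highest 0.15). The other 5 members, of which Cyp2d34 had the lowest adjusted p in CBDL at -0.50 (0.0702), were called in no comparison.

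The CYP2A genes encode steroid and coumarin hydroxylases. The promoters of Cyp2a4 and Cyp2a5 are shown because they are nearly identical: 294 of 301 aligned columns were the same (97.7%) in RefSeq's windows of 300 bases. Both genes fell in CBDL, Cyp2a5 at a dim level. Cyp2j13 and Cyp2j11 also both fell, and their windows were 52.1% or 52.9% identical, by the start site used for Cyp2j13. Whether promoter sequence bears on these changes was not tested. The lines give the 200 bases before each start site, 5′ to 3′, on the plus strand of GRCm38.p6, chr7:26306992-26307191 for Cyp2a4 and chr7:26835139-26835338 for Cyp2a5. Capitals mark the TATA box letters TATAAA.
Cyp2a4: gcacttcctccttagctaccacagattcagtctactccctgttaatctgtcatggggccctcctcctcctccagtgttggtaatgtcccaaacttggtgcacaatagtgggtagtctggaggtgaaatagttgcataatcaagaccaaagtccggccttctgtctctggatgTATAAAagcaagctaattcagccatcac
Cyp2a5: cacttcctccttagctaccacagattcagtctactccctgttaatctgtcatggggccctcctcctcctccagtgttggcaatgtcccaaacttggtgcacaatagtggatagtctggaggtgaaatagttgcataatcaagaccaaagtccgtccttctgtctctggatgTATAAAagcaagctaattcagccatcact
On either strand TATAAA occurs in 13.6% of the 32851 promoter windows of the table. Among the 77 windows found for 69 of the 91 members, it was in 28 (36.4%).

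Cyp2a4, the androgen-raised testosterone 15-alpha-hydroxylase, read 11.08, 11.04 and 11.43 in sham, 8.10, 6.78 and 9.60 in CBDL and 9.71, 10.66 and 10.05 in norUDCA kidneys. The groups were separate, and the CBDL arrays were widely spread. It fell by 3.02 (SE 0.56, limma adjusted p = 0.00373). Its difference of 1.98 in norUDCA against CBDL was not called (95% interval 0.72 to 3.23, adjusted p = 0.0689) except without CBDL_170 (adjusted p = 0.00353). Cyp2a5, the coumarin 7-hydroxylase, read 5.26, 4.70 and 5.64, then 2.47, 2.76 and 3.71, then 4.17, 4.60 and 4.93. CBDL was separate from both other groups, which overlapped. The gene fell by 2.22 (SE 0.34, adjusted p = 0.00121) and rose by 1.58 in norUDCA against CBDL (SE 0.34, adjusted p = 0.0243), the latter lost without CBDL_164, CBDL_165, norUDCA_175 or norUDCA_179 (highest 0.0927). It was dim, and whether its probes also read Cyp2a4 was not tested.

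Cyp2f2, which activates naphthalene, read 8.22, 7.93 and 8.19 in sham, 6.17, 6.18 and 6.61 in CBDL and 7.45, 7.54 and 7.56 in norUDCA kidneys. The groups were separate and each was tight. It fell by 1.79 in CBDL (SE 0.14, limma adjusted p = 4.11e-05), rose by 1.20 in norUDCA against CBDL (SE 0.14, adjusted p = 0.00655) and was lower in norUDCA than in sham by -0.60 (SE 0.14, adjusted p = 0.0487). A dimmer second row of Cyp2f2 differed by -0.73 and 0.03 in the first pair of comparisons. With the mean of both rows the values were -1.26 (adjusted p = 0.000869), 0.62 (adjusted p = 0.0772) and -0.65 (adjusted p = 0.101), so that the last pair of calls was lost. The call against sham was also lost without any 1 sham or norUDCA array or CBDL_164 (highest adjusted p = 0.176). Cyp2e1, the ethanol-inducible enzyme, read 12.59, 12.72 and 12.88, then 11.64, 10.84 and 12.27, then 12.40, 12.34 and 12.28. CBDL_170 reached close to the norUDCA arrays, and no groups overlapped. It fell by 1.15 (SE 0.28, adjusted p = 0.0163), a call lost without sham_160 (adjusted p = 0.0563). The norUDCA difference from CBDL was 0.76 (95% interval 0.12 to 1.39, adjusted p = 0.165), called higher without CBDL_170 (adjusted p = 0.0137). The other 10 members of the CYP2A, 2B, 2F, 2G, 2T and 2AB subfamilies were called in no comparison, and all but Cyp2a22 were dim.

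The CYP2C genes encode epoxygenases and drug-metabolising enzymes. Of 15 members, none was called in CBDL against sham, beside 21.8% of all genes. There limma's unadjusted p was under 0.05 for 4 of the 15 and for 7379 of all 22180 genes. In norUDCA against CBDL 2 members rose (13.3%), beside 3.61% of all genes. Cyp2c23, known earlier as Cyp2c44 and described as the main kidney arachidonic acid epoxygenase of this subfamily, read 7.11, 7.32 and 6.95 in sham, 6.0003, 6.11 and 7.11 in CBDL and 7.66, 7.50 and 7.46 in norUDCA kidneys. CBDL_170 lay within the sham range, and the norUDCA arrays were above all others. The gene rose by 1.14 in norUDCA against CBDL (SE 0.25, limma adjusted p = 0.0279), and its CBDL difference from sham was -0.72 (95% interval -1.28 to -0.15, adjusted p = 0.0715), called lower without CBDL_170 (adjusted p = 0.000626). The rise was not called without CBDL_164, CBDL_165 or any 1 norUDCA array (highest adjusted p = 0.101). The dim Cyp2c69 read 4.41, 4.87 and 4.63, then 3.35, 3.05 and 3.33, then 4.16, 6.43 and 4.61. The CBDL arrays were lowest and norUDCA_175 stood high. It rose by 1.82 in norUDCA against CBDL (SE 0.46, adjusted p = 0.046), lost without any 1 array except norUDCA_172 or norUDCA_175 (highest 0.144), and its CBDL difference was -1.39 (95% interval -2.43 to -0.36, adjusted p = 0.0585), called lower without norUDCA_172 (adjusted p = 0.0339) or norUDCA_175 (0.000709). The other 13 CYP2C genes were called in no comparison, and all but Cyp2c55 were dim. With 1 array left out, the dim Cyp2c50 was called lower in CBDL without sham_158 (adjusted p = 0.0396), and the dim Cyp2c70 higher in norUDCA against CBDL without sham_159 (adjusted p = 0.0448).

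The Cyp2c69 promoter holds CAAAGTCCA, an HNF4 motif, and is shown because this motif recurred in the windows of CYP2C and CYP3A genes. The line gives the 100 bases before the start, 5′ to 3′ on the minus strand, GRCm38.p6 chr19:39886770-39886869, with the motif in capitals.
Cyp2c69: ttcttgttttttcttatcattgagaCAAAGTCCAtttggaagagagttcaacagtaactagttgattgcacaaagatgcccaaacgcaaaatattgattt
Searched on both strands, CAAAGTCCA was in 8 of the 77 member windows (10.4%) and in 0.475% of all windows. The 8 belonged to Cyp2c40, Cyp2c65, Cyp2c68, Cyp2c69, Cyp2c70, Cyp3a11, Cyp3a16 and Cyp8b1, none of them called in CBDL against sham. Windows of closely related genes can share sequence and are not independent. The motif was in 0 of the 20 windows of members that fell, which belong to 15 of the 18 such genes. As 0.475% of all windows hold it, 0 of 20 cannot set these members apart from other genes. Only the exact letters were counted, and the printed promoters of Cyp2a4 and Cyp2a5, which fell, hold the near match CAAAGTCCG. Cyp2d12 and Cyp4a12a, with the largest falls, had no window. These matches describe letters within 300 bases of a start site and show no binding.

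Cyp1b1, which hydroxylates estrogen and arachidonic acid and is induced through the aryl hydrocarbon receptor (AHR), had the largest increase of the 91 members in CBDL. It read 7.72, 7.97 and 7.66 in sham, 9.11, 9.16 and 9.12 in CBDL and 8.78, 8.64 and 8.93 in norUDCA kidneys. The 3 groups were separate, with the 3 CBDL arrays close together. It rose 2.55-fold in CBDL (log2 1.35, SE 0.12, limma adjusted p = 6.52e-05), stayed higher in norUDCA than in sham by 0.997 (SE 0.12, adjusted p = 0.00289), and was not called between norUDCA and CBDL (-0.35, 95% interval -0.61 to -0.09, adjusted p = 0.113). Cyp1a1, the classic AHR target, read 4.36, 4.96 and 4.86, then 4.71, 4.54 and 4.38, then 5.01, 4.30 and 4.71. All 3 groups overlapped at a dim level, with a CBDL difference of -0.18 (95% interval -0.64 to 0.28, adjusted p = 0.587). Cyp1a2, the caffeine-oxidising enzyme of liver, differed by -0.13 (95% interval -0.60 to 0.34, adjusted p = 0.708).

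The receptor gene Ahr read 7.99, 7.42 and 7.67 in sham, 8.72, 8.76 and 8.87 in CBDL and 7.97, 7.91 and 8.10 in norUDCA kidneys. CBDL was highest and separate, and sham and norUDCA overlapped. It rose by 1.09 in CBDL (SE 0.14, limma adjusted p = 0.000482) and fell by 0.79 in norUDCA against CBDL (adjusted p = 0.0134), the latter not called without CBDL_164 or norUDCA_172 or norUDCA_175 (highest adjusted p = 0.0612). The promoters of Cyp1b1 and Cyp1a1 are shown because both hold GCGTG, the core of the AHR motif, while Cyp1b1 rose and Cyp1a1 was not called. The lines give the 100 bases before each start, 5′ to 3′, on GRCm38.p6 chr17:79715062-79715161 (minus strand) and chr9:57697513-57697612 (plus strand). Capitals mark GCGTG, read on the opposite strand as CACGC in Cyp1b1, and TATAAA in Cyp1a1.
Cyp1b1: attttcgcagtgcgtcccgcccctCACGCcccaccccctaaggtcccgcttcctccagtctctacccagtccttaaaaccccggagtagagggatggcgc
Cyp1a1: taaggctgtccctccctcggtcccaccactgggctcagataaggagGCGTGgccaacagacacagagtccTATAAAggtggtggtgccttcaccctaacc
On either strand GCGTG was in 32.4% of all windows and in 17 of the 77 member windows (22.1%). It was in 3 of the 5 windows of members that rose in CBDL and in 4 of the 20 of members that fell. These windows belong to 5 of the 6 genes that rose and 15 of the 18 that fell. Both windows of Cyp2j13 are among the 4 with GCGTG and overlap, so these windows are not independent.

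**Figure D4:**
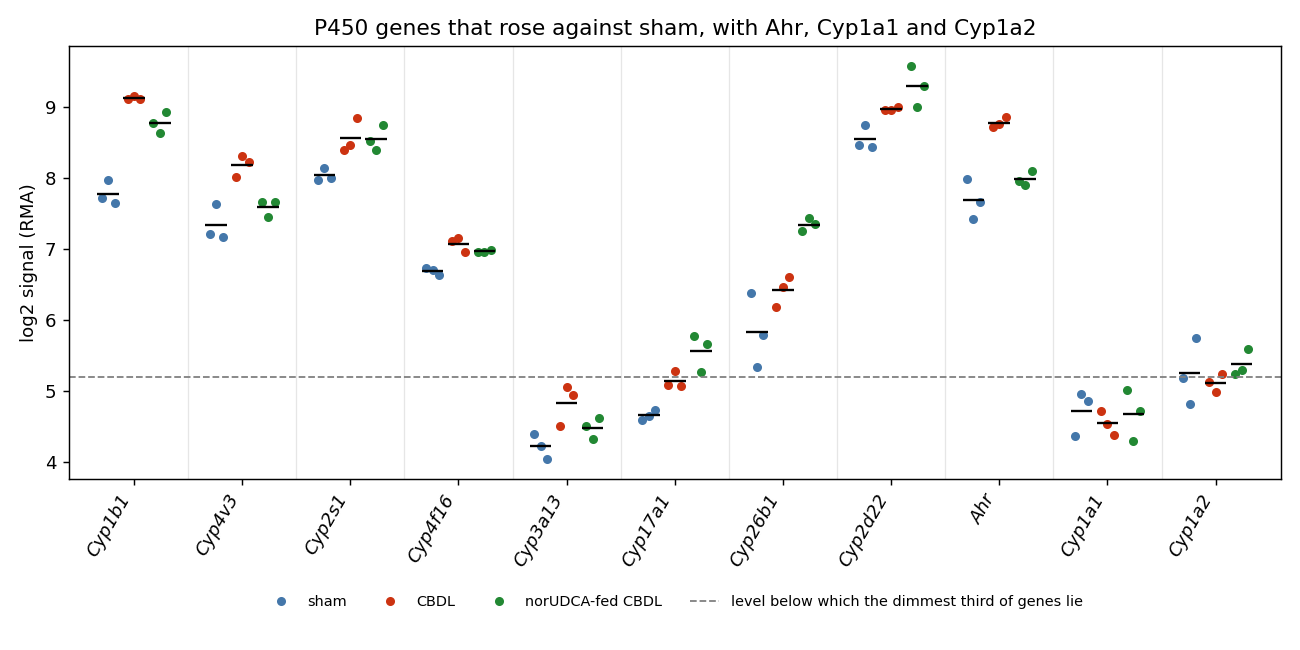
Log2 signal (RMA) on each array for P450 genes that rose against sham in CBDL or norUDCA kidneys, with Ahr, Cyp1a1 and Cyp1a2; dots are arrays, black bars are group means of 3 arrays and the dashed line is the dim level. Cyp1b1 and Cyp4v3 are highest in CBDL, Cyp26b1 and Cyp17a1 in norUDCA kidneys, and Cyp1a1 lies under the dim line in all groups.

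Among the genes of retinoic acid breakdown, Cyp26b1 read 6.39, 5.34 and 5.79 in sham, 6.19, 6.46 and 6.61 in CBDL and 7.26, 7.44 and 7.35 in norUDCA kidneys. The norUDCA arrays were above all others, while sham and CBDL overlapped. It rose 2.85-fold in norUDCA against sham (log2 1.51, SE 0.23, limma adjusted p = 0.00939) and by 0.93 in norUDCA against CBDL (SE 0.23, adjusted p = 0.0408), and differed by 0.58 in CBDL (95% interval 0.07 to 1.09, adjusted p = 0.104), called higher without sham_158 (adjusted p = 0.00939). The first call was lost without norUDCA_179 (adjusted p = 0.0516), and the second without sham_160, CBDL_164, CBDL_165 or any 1 norUDCA array (highest 0.145). Cyp26a1 and Cyp26c1 were dim and not called in any comparison. Among the genes of steroid hormone synthesis, Cyp17a1, the 17-alpha-hydroxylase, was dim over the 9 arrays and read 4.60, 4.65 and 4.73, then 5.08, 5.28 and 5.07, then 5.78, 5.27 and 5.66. Sham was lowest and separate, and CBDL and norUDCA overlapped slightly. It rose by 0.49 in CBDL (adjusted p = 0.029, not called without any 1 sham array, CBDL_164 or CBDL_165, highest 0.0942) and by 0.91 in norUDCA against sham (adjusted p = 0.00893, and 0.0535 without norUDCA_179). Cyp11a1, Cyp11b1, Cyp11b2 and Cyp21a1, which act earlier or later in that synthesis, were also dim and called in no comparison. Of 7 measured adrenal cortex markers, 4 dim, Mc2r (0.83, lost without CBDL_165 at adjusted p = 0.0758), Mrap (0.96, lost without sham_159 at 0.0505) and Scarb1 (0.70) rose in CBDL, and Star and Nr5a1 did not, with means of 5.75 and 4.47 in sham and 5.81 and 4.28 in CBDL. In norUDCA against CBDL, Mc2r, Mrap and Scarb1 had differences of -0.60, -0.53 and -0.29, none called (lowest adjusted p with all arrays 0.146), beside 0.43 for Cyp17a1. In norUDCA against sham, 1 of the 7 rose: the dim Hsd3b1, a steroid dehydrogenase gene (1.06, adjusted p = 0.0394, lost without any 1 sham array, CBDL_164, norUDCA_172 or norUDCA_179, highest 0.166). The list's summed signal was 8.56 to 8.76 in sham, 9.24 to 9.30 in CBDL and 8.87 to 9.20 in norUDCA kidneys. Over all genes, 10.3% rose in CBDL and 1.82% in norUDCA against sham. The part of adrenal tissue in the Cyp17a1 values was not tested.

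In the CYP3A subfamily, which oxidises drugs and bile acids in liver, 1 of 7 members (14.3%) rose in CBDL, near the 10.3% of all genes. This was the dim Cyp3a13, which read 4.40, 4.23 and 4.05 in sham and 4.50, 5.07 and 4.94 in CBDL kidneys (0.61, SE 0.16, limma adjusted p = 0.0212). These groups did not overlap, and the call was lost without sham_159, sham_160, CBDL_165 or CBDL_170 (highest adjusted p = 0.0757). Cyp3a11, the liver enzyme induced through the pregnane X receptor, was dim, with a CBDL difference of -0.28 (adjusted p = 0.321). Cyp2s1, an epithelial enzyme, read 7.97, 8.14 and 8.01 in sham and 8.40, 8.47 and 8.85 in CBDL kidneys, without overlap. It rose by 0.53 (SE 0.14, adjusted p = 0.0239), not called without sham_158, sham_160 or CBDL_170 (highest 0.074). Cyp2u1, a fatty acid hydroxylase, differed by -0.30 (adjusted p = 0.0767), and Cyp2r1, the vitamin D 25-hydroxylase, by -0.13 (adjusted p = 0.785). Cyp20a1, an orphan P450, read 8.35 in sham and 8.63 in CBDL on average (adjusted p = 0.113). For the bile acid genes Cyp7a1, the rate-limiting enzyme of the classic pathway, and Cyp8b1, the 12-alpha-hydroxylase, the CBDL differences were -0.07 (95% interval -0.45 to 0.31) and -0.25 (95% interval -0.59 to 0.09), both at dim CBDL means. Cyp46a1, the cholesterol 24-hydroxylase, differed by 0.22 (adjusted p = 0.318). In all, 28 of the 91 members were called in at least 1 comparison and 63 in none. The share of all genes called in at least 1 comparison is not given here. In the single comparisons 21.8%, 6.80% and 3.18% of all genes were called, beside 26.4%, 15.4% and 9.89% of the members.

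The partners and regulators of P450 enzymes were read from 3 further lists. Over all genes, 10.3% rose and 11.5% fell in CBDL, and 3.61% rose in norUDCA against CBDL. Of 7 measured genes of electron transfer and heme supply, 3 fell and none rose in CBDL: the cytochrome b5 genes Cyb5a (-0.88, limma adjusted p = 0.000307) and Cyb5b (-0.87, adjusted p = 0.00247) and the mitochondrial ferredoxin gene Fdx1 (-0.71, adjusted p = 0.00457). Cyb5a (0.44, adjusted p = 0.0355) and Cyb5b (0.59, adjusted p = 0.045) rose in norUDCA against CBDL, with highest adjusted p of 0.13 without norUDCA_175 and 0.148 without CBDL_164. The Cyb5a call was lost without sham_160 or any 1 norUDCA array or CBDL_164 or CBDL_165, and the Cyb5b call without any 1 array except CBDL_170. The reductase genes Por and Fdxr were not analysed here. Ephx2, the soluble epoxide hydrolase that breaks down the CYP2J and CYP2C epoxides, read 11.33, 11.48 and 11.40 in sham, 9.22, 9.06 and 9.90 in CBDL and 10.33, 10.55 and 10.44 in norUDCA kidneys. Its groups were separate. It fell by 2.01 in CBDL (SE 0.19, adjusted p = 9.62e-05), rose by 1.04 in norUDCA against CBDL (adjusted p = 0.0142) and was lower by -0.96 in norUDCA against sham (adjusted p = 0.0258). The second call was lost without CBDL_164, norUDCA_175 or norUDCA_179 (highest adjusted p = 0.0648), and the third without any 1 sham or norUDCA array (highest 0.113). Of the 4 epoxide hydrolase genes, Ephx1, the microsomal enzyme, rose in CBDL by 0.48 (adjusted p = 0.0244), a call lost without sham_159, sham_160, CBDL_165 or CBDL_170 (highest 0.0751).

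Of 15 measured genes for transcription factors known to control P450 genes, 3 rose and 3 fell in CBDL. This is 20% each, beside 10.3% and 11.5% of all genes, and 14.7% and 15.9% of all genes that were not dim. Ahr, the inflammatory factor gene Cebpb (0.92, limma adjusted p = 0.00196) and the oxidative stress factor Nfe2l2 (0.46, adjusted p = 0.00401) rose. Hnf4a (-0.68, SE 0.11, adjusted p = 0.00144), the common nuclear receptor partner Rxra (-0.64, adjusted p = 0.00112) and the bile acid-induced repressor Nr0b2 (-0.38, adjusted p = 0.0482) fell, the last not called without any 1 array except sham_158 (highest 0.123). Hnf4a, a factor of proximal tubule and liver identity, read 11.79, 11.61 and 11.85, then 11.04, 10.99 and 11.18, then 11.69, 11.49 and 11.64. CBDL was lowest and separate, and sham and norUDCA overlapped. It rose by 0.54 in norUDCA against CBDL (adjusted p = 0.0194), lost without CBDL_164, CBDL_165 or any 1 norUDCA array (highest 0.078). Nr1i2, the pregnane X receptor, rose in norUDCA against sham by 0.78 (adjusted p = 0.0314), a call lost without any 1 sham array, norUDCA_172 or norUDCA_179 (highest 0.141).

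The summed signal of the 91 P450 genes was 15.23, 15.28 and 15.35 on the sham arrays, 14.05, 13.68 and 14.57 on the CBDL arrays and 14.87, 14.88 and 14.81 on the norUDCA arrays, on the log2 scale. The sham arrays were the highest, norUDCA lay between, and the groups did not overlap. The 8 members picked by a sham mean above 10 made up 79.9% to 82.2% of this sum on the sham arrays and 57.5% to 74.1% on the CBDL arrays. Picking them by their sham level favours a higher share in sham. Without these 8 members the sum was 12.83 to 12.96 in sham, 12.40 to 12.62 in CBDL and 12.61 to 12.78 in norUDCA kidneys, where norUDCA and CBDL overlapped. Sums and shares here describe array signal, which depends on the probes, and not amounts of transcript. The signal of the median member was 4.797 to 4.869 in sham, 4.627 to 4.798 in CBDL and 4.701 to 4.802 in norUDCA kidneys, with overlap between the groups. Of 20 proximal tubule markers, 14 rose in norUDCA against CBDL and 2 fell in norUDCA against sham, with median changes of -1.80, 1.16 and -0.43 in the order of the 3 comparisons. Among 8 measured androgen-raised kidney genes that are not P450 genes, 7 fell in CBDL, 3 rose in norUDCA against CBDL and 3 fell in norUDCA against sham. Their summed signal was 13.92 to 14.19 in sham, 11.36 to 12.72 in CBDL and 12.57 to 13.15 in norUDCA kidneys. Kap, Slc22a7 and Slc7a13 are in both this list and the proximal tubule list, so the counts of these lists are not separate. In norUDCA against CBDL the differences of the 8 were 2.47 for Slc7a13, 1.96 for Slc22a7, 1.72 for Slc22a30, 1.08 for Ugt2b38, 1.03 for Kap, 0.37 for Slco1a1, 0.31 for Odc1 and -0.42 for Gusb, with a median of 1.06. Of the 8, Slc22a7, Slc22a30 and Ugt2b38 were the 3 called, and each call was lost with some single arrays left out (highest adjusted p = 0.112, 0.128 and 0.159). The androgen-raised P450 genes named at the start differed by 0.46 for Cyp4a12a, 0.47 for Cyp2j13, 1.15 for Cyp2d9 and 1.98 for Cyp2a4. Among these P450 genes Cyp2d9 alone was called. In norUDCA against sham the 3 called of the 8 were Slco1a1 (-3.00), Slc22a7 (-2.44) and Ugt2b38 (-1.82). The first was lost without sham_159, sham_160, norUDCA_172 or norUDCA_179 (highest adjusted p = 0.0643), and the second without the same arrays (highest 0.0937). Beside them stood -3.04 for Cyp4a12a and -1.64 for Cyp2j13, both called, and -1.04 for Cyp2d9 and for Cyp2a4, not called. Of 9 macrophage markers, all 9 rose in CBDL, 8 fell in norUDCA against CBDL and 7 rose in norUDCA against sham, with summed signals of 10.68 to 11.17, 12.40 to 13.32 and 11.66 to 11.78. Of 10 hepatocyte markers, 3 dim, 1 rose and 4 fell in CBDL. Of 5 measured adipocyte markers, Cidec (3.13), Retn (2.25) and Adipoq (2.10) rose in CBDL, the Retn call lost with some single arrays left out (highest adjusted p = 0.122), and Adipoq differed by -1.48 in norUDCA against CBDL (adjusted p = 0.0148; highest 0.0597, without CBDL_164). Their summed signal was 7.55 to 8.67 in sham, 9.47 to 10.96 in CBDL and 7.92 to 9.71 in norUDCA kidneys. Of 7 thick limb and distal tubule markers 3 fell in CBDL, Pvalb (-1.20), Calb1 (-0.84) and Slc12a3 (-0.45), and of 8 collecting duct markers 1 fell, Aqp3 (-1.39). The Slc12a3 call was lost with some single arrays left out (highest adjusted p = 0.106). The summed distal signal was 14.29 to 14.36 in sham, 13.93 to 14.30 in CBDL and 14.40 to 14.49 in norUDCA kidneys, and the collecting duct signal was 12.03 to 12.25, 11.36 to 12.05 and 12.24 to 12.49. Of all genes, 10.3% rose and 11.5% fell in CBDL against sham. The shares were 3.61% and 3.20% in norUDCA against CBDL, and 1.82% and 1.37% in norUDCA against sham. The parts of the listed cell types and of androgen in the P450 changes were not tested.

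**Figure D5:**
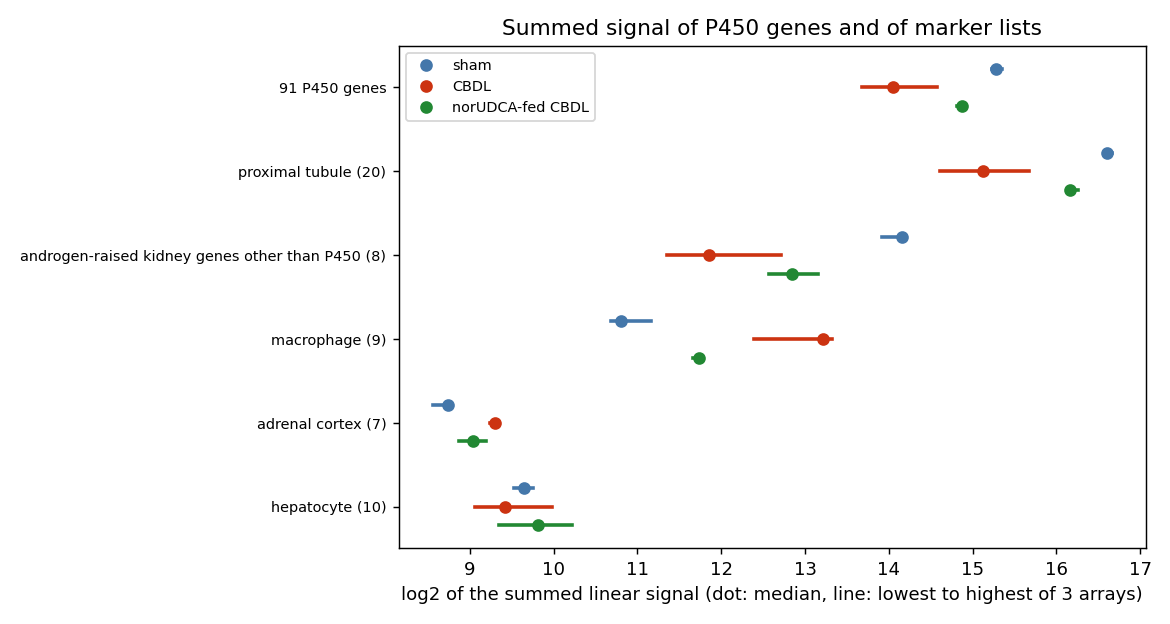
Log2 of the summed linear signal of the 91 P450 genes and of marker lists in the 3 groups; the dot is the median and the line runs from the lowest to the highest of 3 arrays, with the number of genes in brackets. The P450 sum and the proximal tubule sum are highest in sham, lowest in CBDL and between in norUDCA kidneys, and the macrophage sum has the opposite order. The 8 members picked by a sham mean above 10 give 57.5% to 82.2% of the P450 sum on each array, as array signal and not as amounts of transcript.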

How the data were processed

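Total RNA from mouse kidney was hybridised to 1 array per sample after biotin labelling with an Affymetrix whole-transcript kit, per the labels' protocols. The deposited values are log2 signals per array row, and the submitters' processing notes name RMA and Partek 6.6. The array model and genome build are not given in the sources used here. Of 41345 rows, 23521 carried 1 gene symbol, 1814 several and 16010 none in the platform annotation. The brightest single-symbol row stood for each of 22180 genes. The 3 groups of 3 were taken from the sample titles. One mean per group was fitted with limma 3.58.1 (R 4.3.3), with lmFit and eBayes (6 residual and 3.77 prior degrees of freedom), all 9 arrays together and Benjamini-Hochberg adjustment over all genes at 0.05. The median standard error of a difference over all genes was 0.14. With 3 arrays a group an exact two-sided permutation test cannot go below 0.1. The script was tested on simulated data. "With 1 array left out" means the same fit on 8 arrays, and an interval is the 95% confidence interval of the fit.

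The members, marker lists and regulators were chosen with earlier results of these data known. Genes named were, per comparison, the called members of largest change (10 in each direction), up to 4 of lowest p in each group or list, and a set of well-studied members. Genes named beyond that rule were chosen after their values were seen. P450 symbols found only on rows with several symbols (5 symbols) were not analysed here. Promoters are RefSeq windows of GRCm38.p6, from 250 bases before to 50 after the start. Alternatives tried were a trended or robust prior, array weights, only the 6 arrays compared, no dim genes, the mean over a gene's rows, median centring, quantile normalization and leaving out arrays. The number of arrays limits the precision.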

Additional observations from a re-analysis of the deposited data

How the results depend on the processing

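The counts of P450 genes called in CBDL against sham were the steadiest. With 1 array left out, 15 to 19 members fell and 3 to 7 rose, and 16 of the 24 calls passed in all 9 such fits. In norUDCA against CBDL, 1 to 16 rose and 0 to 1 fell, and 1 of 14 calls passed in all 9. In norUDCA against sham, 1 to 5 rose and 2 to 5 fell, and 3 of 9 calls passed in all 9. Fewer arrays in a fit leave fewer degrees of freedom; any other cause was not tested. With only the 6 arrays compared, 5 rose in norUDCA against CBDL. Under quantile normalization 2 fell in norUDCA against CBDL and 3 in norUDCA against sham. Without sham_159 and CBDL_165 together, an alternative chosen after seeing the data, 3 members rose in CBDL against sham, and in norUDCA against CBDL 6 rose and 0 fell, where limma's unadjusted p was under 0.05 with a lower value for 5. The share of all genes under that p in this fit is not given here. The other settings kept each count within 1.5 times its reported value, and no called value changed sign. The scalings moved the median of all genes by less than 0.1. Dim signal limits 54 of the 91 members. No paired analysis was possible because the groups share no replicate numbers in the labels.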

Other observations

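Many P450 genes of a subfamily lie near each other in the genome, and neighbours did not all have like values. Not all do: Cyp4f18 is on chromosome 8 and the other Cyp4f members are on chromosome 17. In the order of the RefSeq annotation, the 10 Cyp2d members on chromosome 15 run Cyp2d22, Cyp2d11, Cyp2d10, Cyp2d9, Cyp2d12, Cyp2d34, Cyp2d13, Cyp2d37-ps, Cyp2d40 and Cyp2d26. Their log2 differences in CBDL against sham, in that order, were 0.43, -0.95, -0.33, -2.19, -5.17, -0.50, -0.01, 0.13, 0.07 and -1.28. Of these, Cyp2d11, Cyp2d9, Cyp2d12 and Cyp2d26 passed the test. On chromosome 4 the neighbours Cyp4a12a and Cyp4a12b differed by -3.50 and -0.21, and the neighbours Cyp2j6, Cyp2j9 and Cyp2j5 by -0.16, -0.58 and -1.13. Whether position bears on these values was not tested.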
